A study of Mus musculus with 8 samples.

Results

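The genes described here are 37 genes of motile cilia and of the ependyma, the ciliated epithelium that lines the brain ventricles, measured in mouse hippocampus. They were chosen by name as ciliary and ependymal genes, and all 8 libraries were used. Of the 37, 35 had a row among the 24527 gene symbols of the count table, and 34 had enough reads to be tested. Mia was present but too low to test. Dnah12 and Cdhr4 had no counts analysed here and entered only the promoter search below. The study compared wild-type C57BL/6J males at 20 weeks of age. All 8 were fed a low-phytoestrogen control diet from weaning at postnatal day 21. The 4 control mice were exposed during gestation and lactation to that diet with 0 mg of bisphenol A (BPA), and the 4 BPA mice to the diet with 50 mg of BPA per kg of diet, BPA being a plastics monomer that can act on hormone receptors. Polyadenylated RNA of the dissected hippocampus was sequenced in 1 library per mouse. The series calls the mice of a group independent biological replicates, but no source used here says how litters were distributed. The p-values therefore describe the variation among these 8 animals.

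Motile cilia beat because dynein motors, fixed in outer and inner arms along the microtubule doublets of the axoneme, slide the doublets against each other. Radial spokes and a central pair of microtubules coordinate the motors, and the nexin-dynein link limits sliding. In the brain such cilia are carried by ependymal cells, where they move cerebrospinal fluid, and the choroid plexus epithelium, which secretes that fluid, arises from the same ventricular lining and expresses some of the same genes. Foxj1 and the RFX factors are the transcription factors best known for switching on the genes of motile cilia. The hippocampus borders the lateral ventricle. In bulk tissue, fewer cells of a type and less RNA per cell cannot be told apart.

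RFX factors bind a sequence known as the X-box, and promoters of members were searched for it because the members share a ciliary program. The search used a table of RefSeq promoters of build GRCm38.p6, from 250 bases before to 50 bases after each start site, in which 33 members were matched (34 promoters). Foxj1, Rsph1, Rsph4a and Rarres2 were not searched. The motif was spelled as GTTNCC and GNAAC with 2 or 3 bases of any kind between them, and read on both strands. It was found in 8 of the 34 member promoters (23.5%), 3 with 3 bases and 5 with 2 bases between the parts, and in 1.47% of all 32851 promoters of the same length. The following stretches, all upstream of the start site and read 5′ to 3′ along the gene, show the match in capitals. They were chosen to show that the motif occurs both in members that varied widely between mice (Dynlrb2, Hydin, Spag16 and Dnaic2) and in the member that varied least, Dnah9.
Dynlrb2: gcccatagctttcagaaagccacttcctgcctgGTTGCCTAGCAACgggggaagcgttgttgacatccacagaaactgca
Hydin: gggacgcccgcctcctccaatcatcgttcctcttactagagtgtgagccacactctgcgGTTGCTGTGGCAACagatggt
Spag16: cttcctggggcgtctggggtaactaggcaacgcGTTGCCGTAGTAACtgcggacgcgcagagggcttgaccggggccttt
Dnaic2: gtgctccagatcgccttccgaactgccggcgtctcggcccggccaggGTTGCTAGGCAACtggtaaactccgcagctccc
Dnah9: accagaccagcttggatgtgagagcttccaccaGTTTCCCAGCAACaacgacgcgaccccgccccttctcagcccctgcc
They lie at chr8:116504931-116505010 (plus strand, first matched base at -51) for Dynlrb2, at chr8:110266897-110266976 (plus strand, first matched base at -21) for Hydin and at chr1:69826834-69826913 (plus strand, first matched base at -103) for Spag16. Those of the other two lie at chr11:114727339-114727418 (plus strand, first matched base at -33) for Dnaic2 and at chr11:66168587-66168666 (minus strand, first matched base at -82) for Dnah9, with positions counted from the start site. Dnaic1, Fam183b and Tekt4 also held a match. The forkhead spellings TGTTTAC or TGTTTGT, the kind of site that Foxj1 and many other factors can bind, were found in 2 member promoters (5.88%), those of Ak7 and Mlf1, and in 9.95% of all promoters. X-box and forkhead matches were found together in 0 member promoters and in 0.107% of all promoters. A match describes letters in these windows only.

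Library totals ran from 27135071 to 40793192 counts among controls and from 43119986 to 54013884 among BPA mice. Every BPA library was deeper than every control, so depth and group cannot be fully told apart. Hippocampal neuron markers were present in all 8 libraries: the dentate granule cell gene Prox1 ran from 85.0 to 131 CPM (each count divided by the TMM-scaled library total of edgeR, in the usual CPM unit) and the pyramidal neuron gene Neurod6 from 276 to 374 CPM. Summed over the 35 members, the level was 120 to 189 CPM among controls and 111 to 139 CPM among BPA mice. No source used here gives the strand setting used in counting, and 12 members overlap exons of a gene on the opposite strand, by 15 to 1336 bases, which leaves their counts uncertain: Rarres2, Hydin, Dnah1, Dnah2, Dnah6, Dnah9, Dnah11, Dnaic1, Dnali1, Ccdc39, Spag6 and Spag17. Mia shares exons with a gene on its own strand, Gm21983, and is uncertain for that reason.

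On a scale per length (RPKM, the CPM divided by kilobases of exon, with exon lengths of the GENCODE annotation of mm10), all members were expressed at low levels in this tissue. The highest was Fam183b, a small cilium-associated protein, at 4.40 ± 0.779 RPKM (mean ± SD, n = 8 libraries). Drc1, a subunit of the nexin-dynein link, followed at 3.21 ± 0.370 RPKM, and Foxj1 and Rsph1, a radial spoke head protein, stood side by side at 2.61 ± 0.726 and 2.60 ± 0.773 RPKM. Their ranges overlapped across mice. Levels were not compared library by library, so the order given for these 4 is that of the means only. Rsph4a, another radial spoke head protein, was at 2.37 ± 0.525 RPKM and Ccdc39, part of the ruler that sets the repeat of the axoneme, at 2.04 ± 0.197 RPKM. The lowest were Dnah11, an outer arm dynein heavy chain, at 0.0795 ± 0.0434 RPKM and the tektin Tekt4, a filament protein of the doublets, at 0.127 ± 0.0369 RPKM. Among the dynein heavy chains, Dnah9 (outer arm) stood highest at 1.29 ± 0.137 RPKM, above Dnah1 (inner arm) at 0.729 ± 0.101, Dnah5 (outer arm) at 0.652 ± 0.0874, Dnah2 and Dnah6 (inner arm) at 0.288 ± 0.0633 and 0.276 ± 0.159, and Dnah11. The ranges of Dnah9 (1.14 to 1.56 RPKM) and Dnah1 (0.535 to 0.810 RPKM) did not overlap, whereas those of Dnah1 and Dnah5 did. Reads were counted on refGene models, whereas the lengths are those of all GENCODE exons of a gene. Where these models differ RPKM is shifted, so every order of genes by RPKM given here is uncertain to that extent.

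The members varied from mouse to mouse far more than most hippocampal genes, and they did so largely together. The SD of log2 CPM within a group had a median of 0.43 over the 34 tested members and of 0.11 over all 15434 genes tested. Members are weakly expressed, with a median of 96.9 reads per library against 635 over all genes tested, which by counting alone gives an SD of about 0.15 for members and 0.057 for all genes. The observed SD exceeded the counting SD in 33 of 34 members and was more than 2 times as large in 27. For all genes tested these numbers were 13521 and 6578 of 15434. Control replicate 2 was the highest of the 8 libraries in 27 of 34 members, while it was highest for 15.2% of all genes tested. BPA replicate 3 was the lowest library in 17 of 34 members, against 13.4% of all genes tested. In 1 of these 17, Tmem212, it was level with control replicate 3. BPA replicate 1 was the highest in 0 and the lowest in 2 members (9.21% and 8.84% of all genes tested). With control replicate 2 set aside, BPA replicate 1 was the highest of the other 7 in 16 members and control replicate 1 in 10, against 11.6% and 13.3% of all genes tested. The highest of those 7 thus came from both groups. Over all 8 libraries the highest was mostly a control, and was BPA replicate 2 or BPA replicate 4 in 1 member each (10.8% and 12.1% of all genes tested). The lowest of all 8 libraries was more often a BPA mouse. After BPA replicate 3, the lowest was BPA replicate 4 in 6 members and BPA replicate 2 in 2 (11.2% and 10.7% of all genes tested). Control replicate 4 was lowest in 5 and control replicate 3 in 2 (16.7% and 12.9%), and control replicates 1 and 2 in 0 (12.6% and 13.5%).

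**Figure D1:**
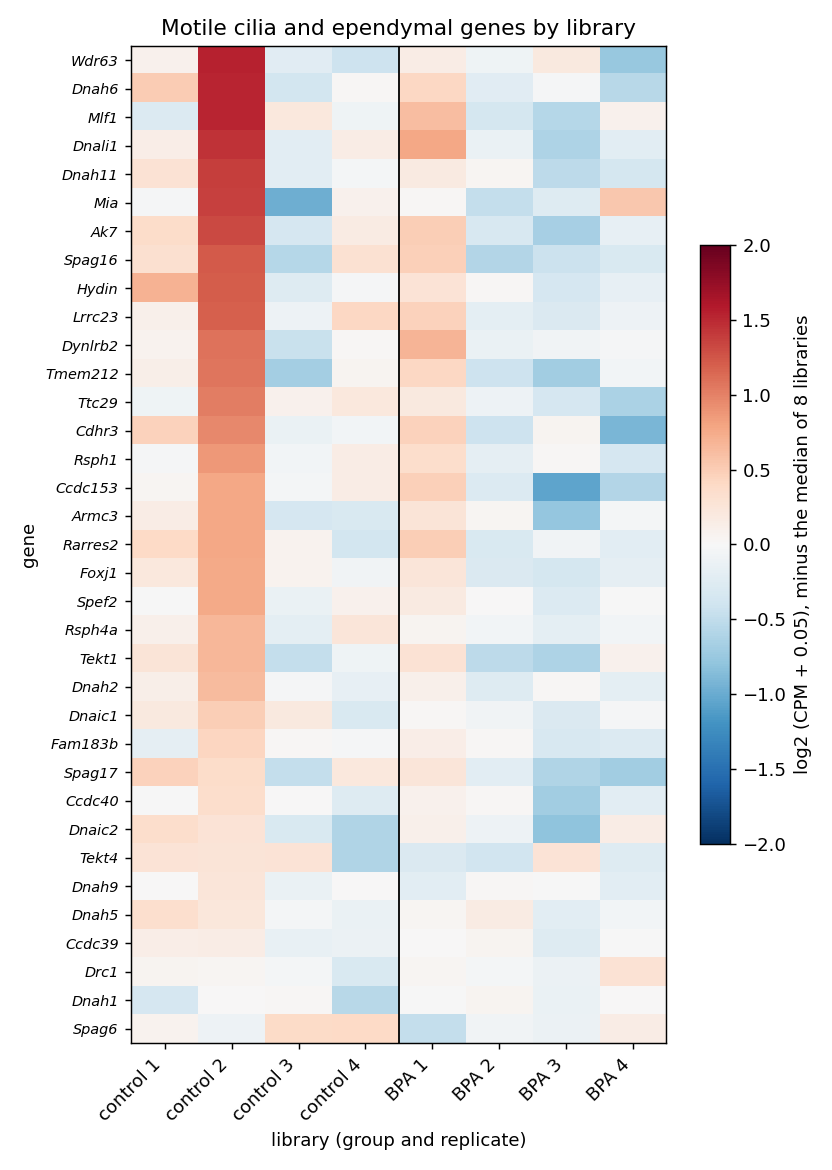
Level of the 35 members in each of the 8 libraries, as log2 (CPM + 0.05) minus the gene's median over the libraries; rows are genes ordered by their value in control replicate 2, columns are libraries, and the colour scale is in log2 units. The column of control replicate 2 is red down most of its length, and BPA replicate 3 is blue in most rows.

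Foxj1, the regulator of the motile cilia program (chromosome 11, 116330704 to 116335399, minus strand, mm10), was at 7.44, 10.9, 6.75 and 6.10 CPM in control replicates 1 to 4 and at 7.58, 5.26, 5.00 and 5.67 CPM in BPA replicates 1 to 4. The highest library was control replicate 2 and the lowest BPA replicate 3, and BPA replicate 1 lay among the controls, so the groups overlapped. Its level in control replicate 2 was 1.79 times the median of the other 7 libraries. Over the 34 tested members this ratio ran from 0.888 to 3.30 with a median of 1.78, and it was at least 2 in 13.

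Several members of the dynein arms had the widest spread. Dnah6, an inner arm heavy chain (chromosome 6, 73017606 to 73221651), was at 4.17, 8.52, 2.26 and 2.97 CPM in control replicates 1 to 4 and at 3.93, 2.50, 2.88 and 1.98 CPM in BPA replicates 1 to 4. Wdr63, an inner arm intermediate chain, was at 0.618, 1.78, 0.484 and 0.419 CPM in control replicates 1 to 4 and at 0.648, 0.541, 0.668 and 0.323 CPM in BPA replicates 1 to 4. Dnali1, a light intermediate chain of the inner arms, was at 1.24, 3.17, 0.968 and 1.26 CPM in control replicates 1 to 4 and at 1.97, 1.03, 0.714 and 0.968 CPM in BPA replicates 1 to 4. In all 3, control replicate 2 stood above every other library, at 2.96, 3.30 and 3.09 times the median of the other 7, and the remaining controls overlapped the BPA mice. Dnah11, whose product is an outer arm heavy chain, was at 1.21, 2.64, 0.839 and 0.952 CPM in control replicates 1 to 4 and at 1.12, 1.01, 0.668 and 0.760 CPM in BPA replicates 1 to 4. Dnah2, an inner arm heavy chain, was at 4.52, 6.45, 4.07 and 3.70 CPM in control replicates 1 to 4 and at 4.45, 3.47, 4.22 and 3.59 CPM in BPA replicates 1 to 4. Dynlrb2, a dynein light chain of the roadblock type, was at 0.716, 1.49, 0.484 and 0.686 CPM in control replicates 1 to 4 and at 1.12, 0.616, 0.645 and 0.668 CPM in BPA replicates 1 to 4. Dnah11 and Dnah2 again peaked in control replicate 2, and Dynlrb2 did so with BPA replicate 1 next. By contrast, Dnah9 was at 21.1, 24.8, 19.2 and 21.2 CPM in control replicates 1 to 4 and at 18.2, 21.3, 21.0 and 18.2 CPM in BPA replicates 1 to 4, and Dnah1 at 8.10, 10.3, 10.4 and 6.97 CPM in control replicates 1 to 4 and at 10.1, 10.6, 9.31 and 10.3 CPM in BPA replicates 1 to 4. Dnah9 had the smallest within-group SD of all tested members (0.14 in log2 CPM), and in Dnah1 control replicate 2 did not stand out (1.02 times the median of the other 7). Dnah5 and Dnaic2, an outer arm intermediate chain, were highest in control replicate 1 and lowest in BPA replicate 3. Dnaic1, the other outer arm intermediate chain of the list, was highest in control replicate 2 and lowest in control replicate 4, with ratios of 1.44 for Dnaic1, 1.31 for Dnaic2 and 1.21 for Dnah5.

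**Figure D2:**
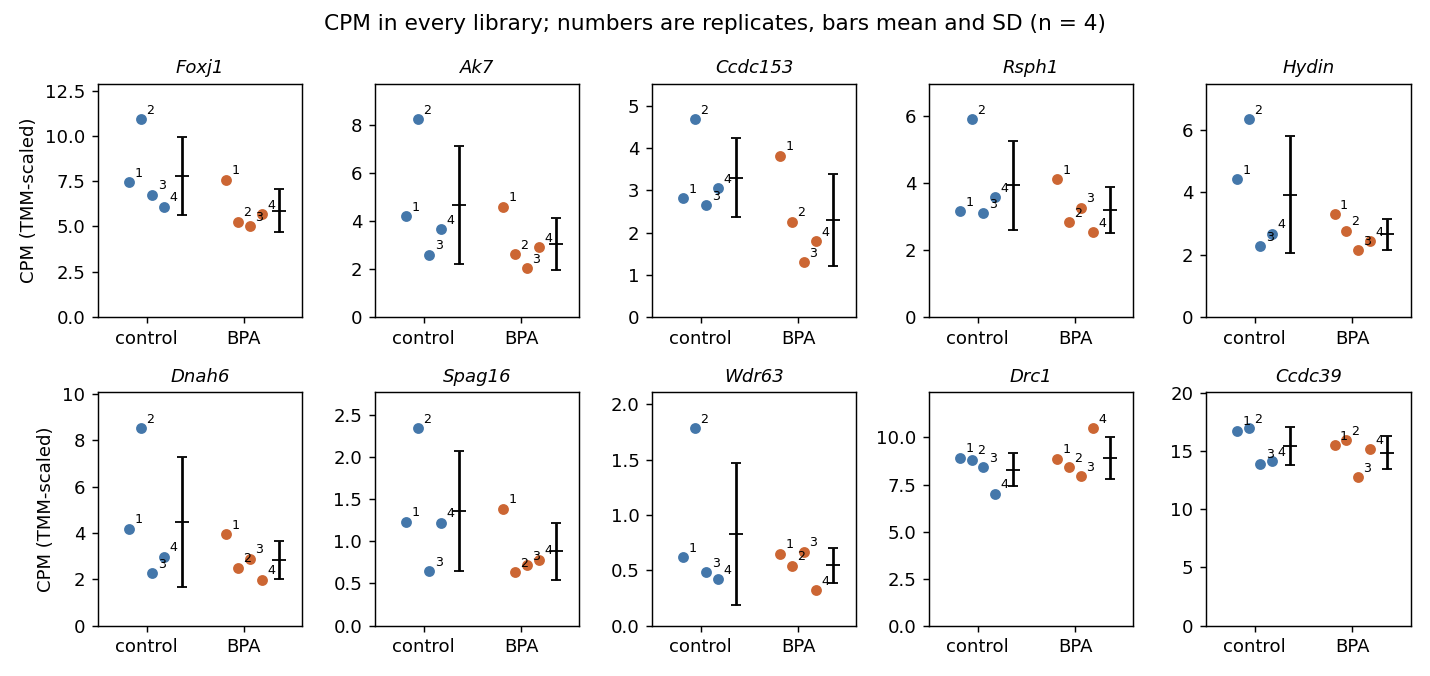
CPM of 10 members in each library (points, numbered by replicate), with the mean and SD of each group of 4 beside the points; every vertical axis starts at 0. Control replicate 2 is the highest point for Foxj1, Ak7, Ccdc153, Rsph1, Hydin, Dnah6, Spag16 and Wdr63 and lies close to other libraries for Drc1 and Ccdc39.

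Radial spoke and central pair genes followed the same library pattern to differing degrees. Rsph1 was at 3.16, 5.91, 3.10 and 3.58 CPM in control replicates 1 to 4 and at 4.11, 2.84, 3.27 and 2.53 CPM in BPA replicates 1 to 4. Rsph4a was at 8.72, 12.9, 7.04 and 9.56 CPM in control replicates 1 to 4 and at 8.38, 7.76, 7.07 and 7.83 CPM in BPA replicates 1 to 4. Lrrc23, a further radial spoke protein, had a within-group SD of 0.47 in log2 CPM and a control replicate 2 ratio of 2.50. All 3 of these spoke genes were highest in control replicate 2. In Drc1 of the nexin-dynein link, BPA replicate 4 was the highest library, and the ratio was 1.05. The ruler proteins Ccdc39 and Ccdc40 were lowest in BPA replicate 3 with ratios of 1.12 and 1.28. Hydin, a central pair protein whose loss causes hydrocephalus in mice, was at 4.42, 6.34, 2.26 and 2.67 CPM in control replicates 1 to 4 and at 3.29, 2.76, 2.14 and 2.42 CPM in BPA replicates 1 to 4. Spag16, another central pair protein, was at 1.24, 2.34, 0.645 and 1.22 CPM in control replicates 1 to 4 and at 1.39, 0.635, 0.714 and 0.783 CPM in BPA replicates 1 to 4. Hydin and Spag16 were both highest in control replicate 2, with controls 1 and 4 and BPA replicate 1 in the middle of the range for Spag16. Spef2 followed them with a ratio of 1.70, and Spag17 was highest in control replicate 1 and lowest in BPA replicate 4. Spag6 was the exception among the central pair genes: it was highest in control replicate 4 and lowest in BPA replicate 1, and its ratio was 0.888. Spag6 had 25 to 41 reads per library, and its close copy Spag6l had a mean of 7.21 ± 0.858 CPM among controls and 6.79 ± 0.570 CPM among BPA mice (SD, n = 4 each). Reads of the copies may have been split in the counting, so Spag6 is uncertain.

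The remaining cilium-associated genes varied most uniformly, since control replicate 2 was the highest library in 7 of 7 and BPA replicate 3 the lowest in 6 of 7. Ak7, an adenylate kinase that balances adenine nucleotides in the axoneme (chromosome 12, 105705976 to 105782447), was at 4.20, 8.23, 2.58 and 3.66 CPM in control replicates 1 to 4 and at 4.58, 2.61, 2.03 and 2.90 CPM in BPA replicates 1 to 4. Ccdc153, a coiled-coil protein often used as an ependymal marker, was at 2.82, 4.69, 2.65 and 3.05 CPM in control replicates 1 to 4 and at 3.82, 2.26, 1.29 and 1.80 CPM in BPA replicates 1 to 4. Mlf1, a protein of multiciliated cells, was at 0.494, 1.84, 0.710 and 0.571 CPM in control replicates 1 to 4 and at 0.961, 0.467, 0.392 and 0.645 CPM in BPA replicates 1 to 4. For each of these genes BPA replicate 1 was the highest BPA library and lay above 3 of the 4 controls. Tmem212, a membrane protein and ependymal marker, was at 0.321, 0.666, 0.161 and 0.305 CPM in control replicates 1 to 4 and at 0.402, 0.205, 0.161 and 0.276 CPM in BPA replicates 1 to 4, from 5 to 25 reads per library. Control replicate 3 and BPA replicate 3 were level for Tmem212, so which was lowest cannot be read, although it is counted among the 6. Fam183b varied least of this set, with a within-group SD of 0.24 in log2 CPM. Armc3 and Ttc29, further ciliary proteins, had SDs of 0.48 and 0.43. Of the tektins, Tekt1 had an SD of 0.47 and was highest in control replicate 2. Tekt4 had 4 to 14 reads per library, and its 4 highest libraries (control replicates 1 to 3 and BPA replicate 3) were level at 0.32 CPM, so no order among them can be read.

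Among the genes for secreted and surface proteins, Rarres2, which encodes the chemoattractant chemerin, was at 3.09, 4.00, 2.45 and 1.79 CPM in control replicates 1 to 4 and at 3.29, 1.87, 2.21 and 2.00 CPM in BPA replicates 1 to 4. Cdhr3, a cadherin-related surface protein of ciliated epithelia, had a within-group SD of 0.55 and a control replicate 2 ratio of 2.06. Mia, a small secreted protein, was at 0.173, 0.533, 0.0645 and 0.190 CPM in control replicates 1 to 4 and at 0.179, 0.112, 0.138 and 0.276 CPM in BPA replicates 1 to 4, from 2 to 20 reads per library. Control replicate 2 was the highest library for all 3, but at the depth of Mia the order of the other libraries cannot be read.

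The question put to the groups was whether hippocampal transcripts differ in adulthood after BPA exposure that ended at weaning. Nearly all members were lower on average in BPA mice, by small amounts that were within the spread between mice. Of the 34 tested members, 32 had a log2 fold change below 0, as did 50% of all genes tested. The median over the members was -0.32 against 3.9e-05 over all genes tested. Members varied largely together across the same mice, so these 32 are not separate observations. No member passed the test (edgeR quasi-likelihood test, adjusted p 0.955 or above for every member), and 0% of all 15434 genes tested did. DESeq2 called 0 members and 0.0337% of 20749 genes. An unadjusted p under 0.05 with a lower level in BPA mice was reached by 1 member and by 2.3% of all genes, and 0 members reached it in the other direction, against 2.22%. DESeq2 put 3 members under an unadjusted p of 0.05, and 3.02% of all genes. In 0 of 34 members did the BPA libraries lie all below or all above the controls, where 1.43% and 1.37% of all genes tested did so.

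Foxj1 had the smallest p of the members. It averaged 7.80 ± 2.15 CPM among controls and 5.88 ± 1.17 CPM among BPA mice (SD, n = 4 each). The ratio of BPA to control was 0.749 (95% interval, not adjusted for the number of genes, 0.574 to 0.977, edgeR adjusted p = 0.955). Without control replicate 2 its log2 fold change moved from -0.42 to -0.21. Dnah6 had the lowest log2 fold change, -0.69 ± 0.34 (estimate ± SE), or -0.17 without that mouse. The next lowest were Dnah11 (-0.68 ± 0.33), Spag16 (-0.65 ± 0.35), Ak7 and Wdr63 (-0.64 ± 0.32 and -0.64 ± 0.42). When that mouse was left out these became -0.18 for Dnah11, -0.24 for Spag16, -0.21 for Ak7 and 0.078 for Wdr63. Hydin had -0.58 ± 0.27 and Rsph4a -0.30 ± 0.15, or -0.25 and -0.12 without that mouse. Ccdc153 was at -0.53 ± 0.29, Tmem212 at -0.51 ± 0.42, Rsph1 at -0.31 ± 0.21 and Rarres2 at -0.29 ± 0.23. With that mouse left out, these log2 fold changes were -0.30 for Ccdc153, -0.027 for Tmem212, -0.037 for Rsph1 and -0.087 for Rarres2. The 2 members with a value above 0 were Dnah1 (0.17 ± 0.11) and Drc1 (0.10 ± 0.10), at 0.24 and 0.13 without control replicate 2. With a term for sequencing depth, Drc1 was at -0.034.

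By role, the 11 tested dynein arm genes had a median log2 fold change of -0.26 with 10 below 0, the 6 genes of spokes, link and ruler also -0.26 with 5 below 0, and the 5 central pair genes -0.48 with 5 below 0. The 7 other cilium-associated genes had a median of -0.53 with 7 below 0. Without control replicate 2 the median over all 34 members was -0.088 with 26 below 0, and 48.5% of all genes were then below 0. Leaving out both that mouse and BPA replicate 3, it was -0.068 with 21 below 0 (50.7% of all genes). Leaving out BPA replicate 1 gave -0.48 with 32 below 0 (50.4% of all genes). A term for sequencing depth in the model gave -0.58 with 33 below 0 (47.3%), and a term for Ttr gave -0.23 with 31 below 0 (49.2%).

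Markers of other cell types were compared in the same fit, and 0 passed in any of these lists. All 20 tested choroid plexus markers were lower on average in BPA mice, with a median log2 fold change of -1.13. Control replicate 2 was the highest library for 19 of these 20, against 15.2% of all genes tested. Their fold changes without that mouse are not given here. The smallest p among these markers were those of the folate receptor gene Folr1 (-1.80 ± 0.93) and of Kl, which encodes klotho (-0.66 ± 0.35). Of the 12 astrocyte markers, 5 were lower and the median was 0.034. Their sum was 10190 to 11746 CPM among controls and 9044 to 10238 CPM among BPA mice. Most of that sum was the glutamate transporter gene Slc1a2, with means of 8272 CPM among controls and 6977 CPM among BPA mice. Slc1a2 (-0.25 ± 0.061, edgeR adjusted p = 0.955) was lower in every BPA library than in every control. The mean log2 CPM of the 12 astrocyte markers was level, at 7.33 to 7.37 among controls and 7.32 to 7.35 among BPA mice. Gjb6, which encodes an astrocyte connexin, had 0.15 ± 0.084. Of 14 meningeal and fibroblast markers 4 were lower (median 0.025, Islr 0.23 ± 0.17, Slc13a3 0.29 ± 0.27), and of 6 tested tanycyte markers 1 was lower (median 0.058, Scn7a -0.26 ± 0.10, Dio2 0.08 ± 0.067). Of 12 hippocampal neuron markers 8 were lower (median -0.053, Nectin3 -0.19 ± 0.072, Pou3f1 -0.15 ± 0.082). What part these have in the members' values between groups was not tested beyond the fit with Ttr.

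**Figure D3:**
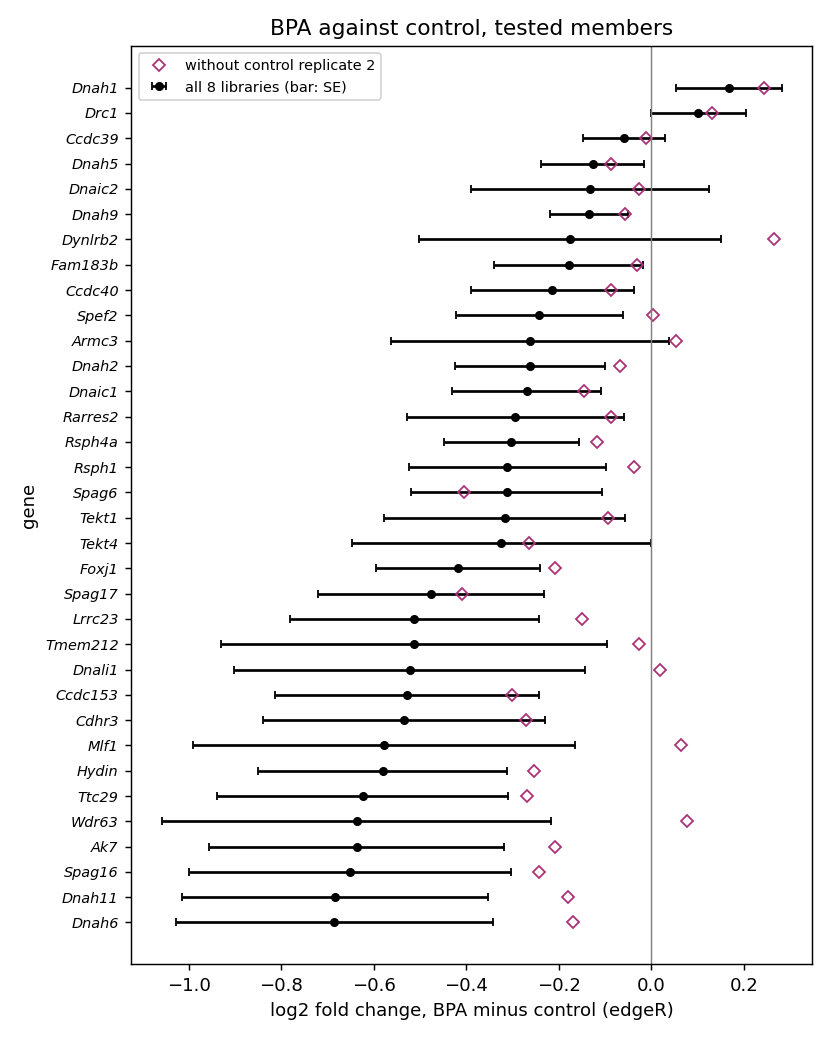
Log2 fold change of BPA against control for the 34 tested members, with all 8 libraries (filled points, bars 1 SE) and without control replicate 2 (open diamonds). With all libraries 32 of 34 points lie below 0; without control replicate 2 the diamonds lie closer to 0 for most genes and 26 lie below it.

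Other ciliary genes, from lists that held no member, were also often highest in control replicate 2. Of 24 further axonemal dynein and assembly genes in the table, 22 were tested, 0 passed in either direction, 16 were lower in BPA mice and the median log2 fold change was -0.094. Of 54 further spoke, central pair, link and cilia-associated genes, 50 were tested, 0 passed in either direction, 36 were lower and the median was -0.22. Of these 72 genes, 45 were highest in control replicate 2. An unadjusted p under 0.05 with a lower level in BPA mice was found for 6 of the 72 and a higher level for 0, beside 2.3% and 2.22% of all genes. The smallest p were those of Ccdc114, an outer arm docking protein (-0.63 ± 0.17, edgeR adjusted p = 0.955), and Dnaaf3, a dynein assembly factor (-1.02 ± 0.38, edgeR adjusted p = 0.955), both overlapping a gene on the opposite strand, and of Cfap57 (-0.52 ± 0.18) and Spata18 (-0.89 ± 0.33, edgeR adjusted p = 0.955 for both). Ccdc114 was at 3.75, 6.63, 4.74 and 5.45 CPM in control replicates 1 to 4 and at 3.93, 2.82, 3.13 and 3.39 CPM in BPA replicates 1 to 4, so BPA replicate 1 lay above control replicate 1. Of 9 tested regulators of multiciliated cell fate, 0 passed, 4 were lower and 5 higher, with a median of 0.020. Myb, a regulator of multiciliated precursors, had -0.63 ± 0.26 and overlaps a gene on the opposite strand, and Ccno, a cyclin-like factor for basal body amplification, had 0.25 ± 0.16.

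Genes of intraflagellar transport and the primary cilium, the single non-motile cilium that neurons and astrocytes carry, did not vary in this way. Their within-group SD of log2 CPM had a median of 0.083 over 34 tested genes. These genes were more highly expressed than the members (in control replicate 2, mean log2 CPM 4.85 against 1.89), so counting error adds less to their SD. Control replicate 2 was the highest library in 4 of the 34 and BPA replicate 4 in 11, against 15.2% and 12.1% of all genes tested. In BPA mice 13 were lower and 21 higher, 0 passed, and the median log2 fold change was 0.012. Ift80 had the smallest p (-0.12 ± 0.058, edgeR adjusted p = 0.955), followed by Bbs4 (0.10 ± 0.05), which overlaps a gene on the opposite strand.

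Ttr encodes transthyretin, a thyroid hormone carrier made in the brain by choroid plexus, and served as the measure of choroid plexus in each sample. It was at 60.1, 1712, 30.0 and 79.5 CPM in control replicates 1 to 4 and at 118, 8.94, 389 and 43.5 CPM in BPA replicates 1 to 4, a 191-fold range with control replicate 2 highest, BPA replicate 3 next and BPA replicate 2 lowest. The 22 choroid plexus markers, Ttr included, together ran from 229 to 3311 CPM among controls and from 184 to 913 CPM among BPA mice. Of these, 1 (Wdr86) was at 0 in a library. All 19 tested choroid plexus markers other than Ttr rose with Ttr (edgeR, slope on log2 Ttr with group in the model, adjusted over all genes), where 0.68% of 15433 genes did so. The median slope of those 19 was 0.62, that is 0.62 log2 units per log2 unit of Ttr.

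The members had shallower slopes on Ttr, and 0 of 34 passed the same test in either direction, where 0.68% of all genes passed upward and 0.00648% downward. Their median slope was 0.090, with 29 of 34 above 0, as were 49.9% of all genes. At an unadjusted p under 0.05, 16 members had a positive slope and 0 a negative one, against 6.61% and 4.15% of all genes. Dnah6 had the smallest p, with a slope of 0.21 ± 0.049 (SE) and an edgeR adjusted p of 0.0990. Next came Rsph1 (0.13 ± 0.033, edgeR adjusted p = 0.146), Wdr63 (0.24 ± 0.063, edgeR adjusted p = 0.149), Dnah2 (0.10 ± 0.025, edgeR adjusted p = 0.154) and Spag16 (0.19 ± 0.059, edgeR adjusted p = 0.251). Foxj1 had a slope of 0.083 ± 0.033 (edgeR adjusted p = 0.396) and Ccdc153 of 0.073 ± 0.061 (edgeR adjusted p = 0.739). The slopes of Drc1, Ccdc39, Ccdc40 and Dnaic2 lay between -0.0017 and 0.0025.

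Leaving out single mice moved this relation in both directions. Control replicate 2 was highest for Ttr and for most members, whereas BPA replicate 3 had the next highest Ttr and the lowest level of 17 members. Without BPA replicate 3, 9 members passed with a positive slope (edgeR adjusted p 0.0022 to 0.047): Ak7, Dnah6, Dnali1, Dynlrb2, Foxj1, Lrrc23, Mlf1, Rsph1 and Spag16. The share of all genes that passed upward was then 0.745%, and the members' median slope was 0.15. Without control replicate 2, 0 members passed, the median slope was 0.0080 and 18 of 34 were above 0, with 0.123% of all genes passing upward. Without BPA replicate 2, the mouse with the least Ttr, Dnah6 and Wdr63 passed (edgeR adjusted p = 0.041 and 0.023), as did 0.68% of all genes. Dnah6 alone passed with no filter on low counts (0.992% of all genes) and with the choroid plexus list in place of Ttr (0.998%). No member passed without control replicate 1, 3 or 4 (0.849%, 0.395% and 0.59% of all genes), without BPA replicate 1 or 4 (0.693% and 0.616%), or without control replicate 2 and BPA replicate 3 together (0.013%). The summed level of 14 meningeal and fibroblast markers also varied, from 185 to 323 CPM among controls and from 198 to 374 CPM among BPA mice, and was highest in BPA replicate 3. Its part in the members' values was not tested.

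**Figure D4:**
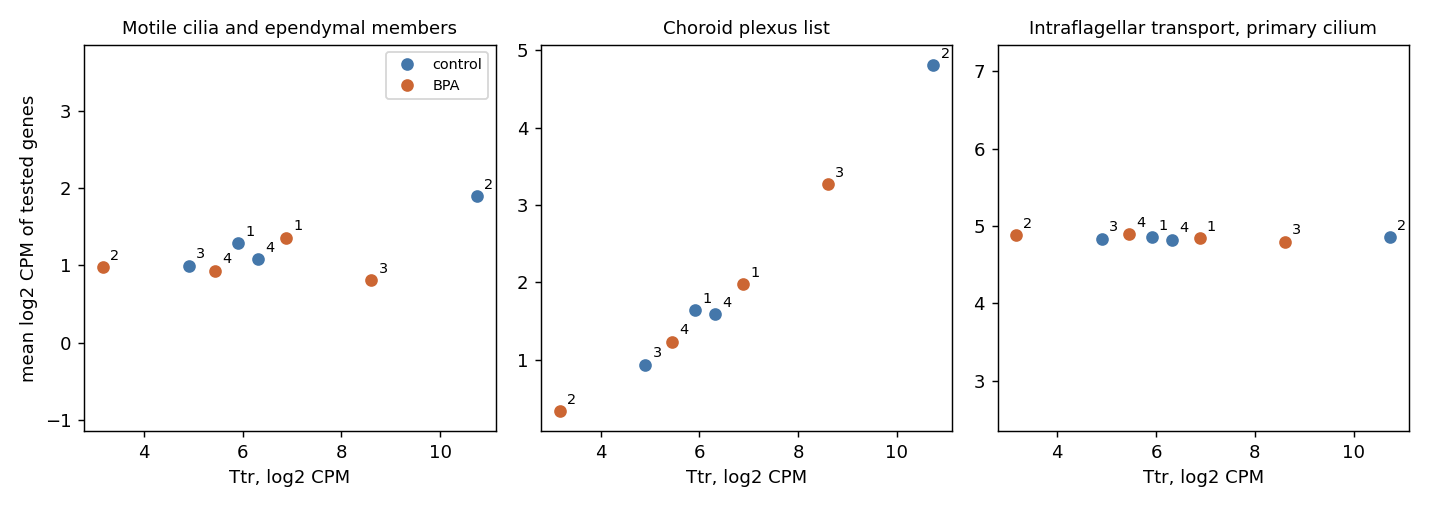
Mean log2 CPM over the tested genes of 3 sets against log2 CPM of Ttr, 1 point per library numbered by replicate and coloured by group; the vertical axes all span the same number of log2 units. Choroid plexus genes, a set that includes Ttr, rise steadily with Ttr, primary cilium genes stay level, and the members are highest in control replicate 2 and lowest in BPA replicate 3.

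Correlations over the 8 libraries, computed for each of the 15433 genes, also depended on a few mice. For members, Pearson's r with Ttr had a median of 0.56 and was above 0 in 30 of 34, as it was in 50% of all genes, and Spearman's rho had a median of 0.37. With control replicate 2 and BPA replicate 2 left out, the libraries farthest from the median of Ttr, the median r was -0.17 and 10 of 34 were above 0 (50.6% of all genes), so the positive median r rested on those libraries. Without control replicate 2 and BPA replicate 3 together, by contrast, the median slope of the members was 0.067 with 26 of 34 above 0. For Rsph1, Pearson's r was 0.81 (exact permutation p = 0.0170, adjusted p = 0.434), Spearman's rho 0.86 (exact permutation p = 0.0107, adjusted p = 0.441), and r was 0.42 without them. For Foxj1, Pearson's r was 0.59 (exact permutation p = 0.123, adjusted p = 0.603), Spearman's rho 0.38 (exact permutation p = 0.360, adjusted p = 0.776), and r was -0.47 without them. For Wdr63, Pearson's r was 0.77 (exact permutation p = 0.0337, adjusted p = 0.472), Spearman's rho 0.71 (exact permutation p = 0.0576, adjusted p = 0.566), and r was 0.62 without them. No correlation of any gene passed after adjustment (0% of 15433 genes in either measure). With 8 libraries the test could hardly pass any gene. The choroid plexus gene Enpp2, in the same order as Ttr (Spearman's rho 1, exact permutation p = 4.96e-05), had an adjusted p of 0.191. F5, with a Pearson's r of 0.99 (exact permutation p = 2.48e-05), had 0.0957. The absence of passing genes is therefore not a sign of absent correlation.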

How the data were processed

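Raw read counts per gene symbol were deposited by the authors as 1 unnormalized table of 24527 rows and 8 libraries. The tools listed are featureCounts 1.5.0, Trimmomatic 0.32 and STAR 2.3.0e, with build mm10 and an unversioned DESeq2, per the submitters' processing notes. Gene models were refGene, per the file headers. Columns were matched to samples by the library code in each title.

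From these counts, filterByExpr left 15434 genes; 3750 rows had no read. Groups were compared in edgeR 4.0.16 (run in R 4.3.3) by its two-sided quasi-likelihood test, after TMM scaling, with Benjamini-Hochberg adjustment over all genes at 0.05; log2 CPM used a prior count of 2. The relation to Ttr was tested as a slope in the same model, and by exact permutation of all 40320 pairings of libraries. DESeq2 1.42.0 and the other alternatives are given in the closing section. On simulated counts for the same 15434 genes, edgeR recovered 40% of 1.25-fold, 86% of 1.5-fold and 94% of 2-fold changes between groups, with 11 false calls, and 92% of slopes of 0.2, with 6 false calls. These shares are over all genes (median SE of the log2 fold change 0.075) and do not describe the members (median SE 0.26). Every simulated gene was given the same variation between mice (a coefficient of variation of 8.2%), with no outlying mouse. The shares therefore do not hold for genes that vary more. Replicates differed beyond sampling noise in all 12 pairs within groups (chi-square per degree of freedom 9.69 to 23.5).

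All members are accounted for. Values in every library are given for 9 members fixed by name, the 5 with the smallest p between groups, the 5 with the largest spread and the 5 with the smallest p of the slope. For each other list, the 2 genes with the smallest p between groups are named with their fold change. Dnah1, Dnah9, Drc1 and Ccdc39 were added after their values were seen, as members of small spread, the library values of Ccdc114 likewise, and Spag6l as a copy of Spag6. The members and lists were chosen with earlier results of these data known. Positions, lengths and overlaps come from GENCODE M21.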

Additional observations from a re-analysis of the deposited data

Results flagged for a closer look

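Among the 68 groups of 4 mice formed by the 34 tested members, 6 held a mouse far from the other 3 by Dixon's ratio, which chance gives in about 1 in 20 groups. Control replicate 2 stood out in 3 of them: Dnali1 was at 3.17 CPM there against 0.968 to 1.26 CPM in the other controls, Mlf1 at 1.84 CPM against 0.494 to 0.710 CPM, and Wdr63 at 1.78 CPM against 0.419 to 0.618 CPM. Dynlrb2 was at 1.12 CPM in BPA replicate 1 against 0.616 to 0.668 CPM in the other BPA mice. Tekt4, with 4 to 14 reads per library, was at 0.152 CPM in control replicate 4 against 0.32 CPM in each of the other controls, and at 0.323 CPM in BPA replicate 3 against 0.187 to 0.207 CPM.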

How the results depend on the processing

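Between groups, edgeR called 0 members under the 15 settings other than DESeq2, which called 7 genes and 0 members. Unadjusted p under 0.05 was reached by 1 member and 698 genes, by 6 and 897 with no filter on low counts (20777 genes tested), 5 and 498 with the replicate block, 6 and 524 with library total and 0 and 661 with Ttr as a covariate, 3 and 721 after thinning to the smallest total, 3 and 627 with DESeq2, and by 0 to 11 members and 352 to 1156 genes on leaving out 1 replicate. With control replicate 2 and BPA replicate 3 both left out, 21 members were lower. Same-numbered mice did not deviate together (correlations -0.37 to 0.070, 0 of 4 controls closest to their own number). The labels state no pairing, and with 4 mice per group these correlations cannot exclude one. The replicate block is therefore given only as an alternative.

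On leaving out 1 replicate, log2 fold changes ran from -0.42 to 0.26 for Dynlrb2, -0.89 to 0.017 for Dnali1, -0.87 to 0.063 for Mlf1 and -0.83 to 0.078 for Wdr63, positive without control replicate 2, as were Armc3 (0.052) and Spef2 (0.0043). Dnaic2 was positive without control replicate 1 (0.023) and without BPA replicate 3 (0.038), as was Ccdc39 (0.0050) in the latter. With control replicate 2 and BPA replicate 3 both left out, 11 members turned positive: Dynlrb2 0.33, Armc3 0.22, Mlf1 0.22, Dnali1 0.18, Dnaic2 0.13, Tmem212 0.13, Spef2 0.077, Ccdc39 0.051, Ccdc40 0.047, Fam183b 0.035 and Tekt1 0.023. With Ttr as a covariate Dynlrb2 was at 0.069, and with library total Drc1 was at -0.034. The cause was not tested.

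Slopes on Ttr were called for 106 genes, 217 with no filter, 52 with the replicate block and 2 with control replicate 2 and BPA replicate 3 both left out, and for 19 to 132 on leaving out 1 replicate (19 without control replicate 2, 61 without control replicate 3). Members called numbered 1 (Dnah6) with no filter, with the choroid plexus list in place of Ttr and with the replicate block, and 0 to 9 on leaving out 1 replicate. Members with an unadjusted p under 0.05 numbered 7 without both mice, where 427 genes reached it, and 0 to 22 on leaving out 1 replicate (1124 to 1860 genes). The median slope was 0.15 with the choroid plexus list and 0.0080 to 0.15 on leaving out 1 replicate, with 18 to 33 members above 0. Slopes of 11 members turned negative without control replicate 2, and 1 to 6 members changed sign without each other mouse. Of these, Ccdc153 ran from -0.025 to 0.16, Hydin from -0.012 to 0.17 and Dnah11 from -0.051 to 0.22 on leaving out 1 replicate, and the others were Dnah1, Dnah9, Dnaic1, Ccdc40, Spef2, Fam183b, Ttc29 and Armc3, at -0.098 to -0.0022. The median within-group SD of members was 0.33 without control replicate 2.

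Low counts limit Mia, Tmem212 and Tekt4.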
